A study of Mus musculus with 111 samples.

Results

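Histamine neurons, which fire while an animal is awake, have their cell bodies in the tuberomammillary nucleus (TMN) of the posterior hypothalamus. These libraries compare the TMN at the start of the inactive phase with the TMN at the start of the active phase in mice that carried a control virus. Zeitgeber time 0 (ZT0) is lights on and ZT12 is lights off, when a nocturnal mouse becomes active. The members are the RNA-seq libraries labelled GFP or H3.3 at these times, 22 of the 111 in the series, with 9 at ZT0 and 13 at ZT12. All came from adult C57BL/6 mice that had received an adeno-associated virus in the TMN, and each library came from 1 animal. The GFP virus expressed green fluorescent protein alone, with 4 libraries at ZT0 and 6 at ZT12. The H3.3 virus expressed wild-type histone H3.3 together with GFP, with 5 libraries at ZT0 and 7 at ZT12. Both served the study as controls for the Q5A virus, which expresses H3.3 with glutamine 5 replaced by alanine. Tissue was dissected by its GFP signal, so it held transduced and untransduced cells, and the virally expressed H3.3 was added to the endogenous histone. The animals were of both sexes and the labels do not give the sex of a library.

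The molecular clock works in nearly every cell as a feedback loop. The activators CLOCK and BMAL1 (gene Arntl) bind E-boxes and drive the Period and Cryptochrome genes, whose proteins then repress the activators. Further loops run through the nuclear receptors REV-ERB alpha and beta (Nr1d1 and Nr1d2) and through the D-box binding factors DBP, TEF and HLF. Many clock output genes outside the suprachiasmatic nucleus of nocturnal rodents peak around dusk.

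The short promoter sequences of clock genes described here are shown because they carry these motifs. Each runs from 250 bases before the gene's start to 50 after it in RefSeq on GRCm38.p6, and the capitals mark the E-box CACGTG or the D-box TTATGTAA. The first is on chr11:69098699-69098998 and the third on chr15:81802423-81802722, both on the plus strand, and the second is on chr4:151044616-151044915 on the minus strand.
Per1: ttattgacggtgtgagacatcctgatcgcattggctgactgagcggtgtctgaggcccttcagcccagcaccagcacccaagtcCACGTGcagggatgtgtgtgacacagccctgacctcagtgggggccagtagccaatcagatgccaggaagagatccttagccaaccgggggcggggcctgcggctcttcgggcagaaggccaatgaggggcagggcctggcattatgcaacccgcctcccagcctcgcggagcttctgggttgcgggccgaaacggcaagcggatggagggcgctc
Per3: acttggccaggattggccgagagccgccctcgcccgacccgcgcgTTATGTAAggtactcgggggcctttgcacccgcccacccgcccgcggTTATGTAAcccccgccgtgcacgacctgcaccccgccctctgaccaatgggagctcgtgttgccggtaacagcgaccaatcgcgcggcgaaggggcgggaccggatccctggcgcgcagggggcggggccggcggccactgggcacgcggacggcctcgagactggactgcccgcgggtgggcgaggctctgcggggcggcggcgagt
Tef: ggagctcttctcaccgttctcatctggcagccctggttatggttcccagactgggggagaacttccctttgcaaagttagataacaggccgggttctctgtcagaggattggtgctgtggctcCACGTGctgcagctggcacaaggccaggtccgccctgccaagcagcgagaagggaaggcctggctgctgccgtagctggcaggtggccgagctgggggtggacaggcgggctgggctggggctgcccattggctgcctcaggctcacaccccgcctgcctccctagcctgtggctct
The E-box lies 166 bases before the start of Per1 and 127 before that of Tef, which has a second start with an E-box 138 bases before it. Per1 also has a second RefSeq start, whose window (chr11:69099902-69100201) held no motif, and both windows lie inside the longer gene span that the annotation used for the rows gives it. The D-boxes lie 205 and 158 bases before the start of Per3. The E-box, which reads the same on both strands, was found at 2187 of 27025 genes with a promoter sequence (8.09%) and at 4 of 12 tested clock genes that had one (Per1, Tef, Ciart and Bhlhe41). The D-box on either strand was found at 299 of all genes (1.11%) and, among the clock genes, at Per3. The window of Dbp held neither. These matches describe letters in a window and were tested against no binding data.

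The libraries were made with a stranded kit and counted with the option that keeps reads on the strand of the named gene. The first read of such a kit usually runs against the transcript, and that option then leaves out most of the named gene's own reads and puts reads of an overlapping gene on the other strand in its row. A row may therefore hold RNA of the opposite gene rather than of the gene it is named for, and which of these it holds was not tested. Of the gene names that could be placed on the genome, 5683 of 28499 (19.9%) have exons that overlap another gene on the other strand, and these rows held 79.5% of the counts in placed names. Each row is given under its deposited name, with the gene on the other strand beside it, and what a named gene does is background that need not apply to the RNA counted. For rows with no gene opposite, such as Per1 and Pitpnm2, the origin of the reads was not tested either. Rows named after clones, such as RP23-280F6.4, had no position here. Levels are CPM, counts scaled to a common library size with a correction for composition, and a difference is the log2 ratio of ZT12 to ZT0. Levels are compared between times and never between genes.

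Total counts were 875500 to 1578349 at ZT0 and 1059191 to 2705042 at ZT12, a mean difference within the spread between libraries (2-sided exact permutation test, p = 0.151, adjusted over 4 library measures 0.330). Libraries of cohorts 1, 2 and 3 numbered 8, 1 and 0 at ZT0 and 9, 3 and 1 at ZT12. The share of counts in rows that overlap another gene was 78.8% to 85.8% at ZT0 and 64.6% to 85.9% at ZT12, and the 4 lowest values all came from GFP libraries at ZT12. The TMN marker row Hdc, the histamine-making enzyme, was near its detection limit, with 0 to 7.16 CPM at ZT0 and 0.88 to 26.0 CPM at ZT12. The row Parpbp, which lies opposite the melanin-concentrating hormone gene Pmch, ranged from 29.1 to 33177 CPM over the 22 libraries. ZT12 replicate 3 of cohort 1 in GFP and replicate 1 of cohort 1 in H3.3 stood apart. They held 6335 and 9335 CPM of RP23-355L10.3, against 67.0 to 238 in the others, and 458 and 570 CPM in 6 striatal neuron marker rows, against 22.9 to 69.9. Their Parpbp rows were at 40.5 and 59.6 CPM, which was not particular to them, as GFP ZT12 replicate 2 of cohort 1 held 29.1 CPM. Main results are therefore also given without these 2 libraries.

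Of 9578 rows tested, 79 differed between ZT12 and ZT0 at an adjusted p under 0.05 (edgeR quasi-likelihood test with virus as covariate), which is 0.825% of the rows. Higher at ZT12 were 14 rows (0.146%), with a median difference of 0.83, and lower were 65 (0.679%), with a median of -0.82. The median over all rows was 0.05. Differences of called rows ranged from 0.52 to 2.44 in size. An unadjusted p under 0.05 was found in 1607 rows (16.8%), 842 of them higher and 765 lower. DESeq2 called 219 rows (2.29%) and edgeR with cohort as a further covariate 313 (3.27%), both with all 79 among them. Without the 2 libraries above, all 79 rows stayed called and the count rose to 529 of 9440 rows (5.6%), 233 higher (2.47%) and 296 lower (3.14%). With the share of counts in overlapping rows as a further covariate the count was 49 (0.512%), 22 higher (0.23%) and 27 lower (0.282%), of which 28 were among the 79, and without the 4 libraries of lowest share it was 9 of 8272 rows (0.109%), of which 7 were among the 79. In both of these fits every one of the 79 rows that was tested kept its sign, 79 in the first and 78 in the second. These fits share libraries with the one that chose the 79, so the kept signs follow in part from that choice. Left out singly, each of 14 libraries moved the count by over 1.5 times, to between 8 and 326.

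**Figure D1:**
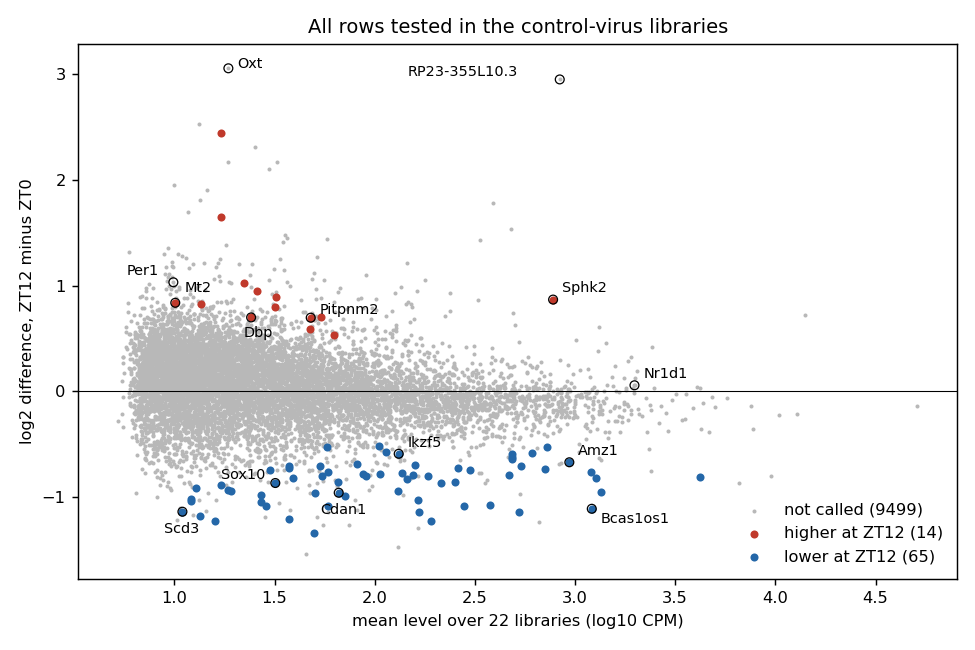
Log2 difference of ZT12 minus ZT0 (vertical axis) against the mean level in log10 CPM over the 22 libraries (horizontal axis) for each of the 9578 rows tested. Grey points are the rows not called, red points the 14 called higher at ZT12 and blue points the 65 called lower, and circled rows are named. Sphk2 is the most abundant of the rows called higher, and the rows called lower spread over a wider range of levels.

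Of the clock list the row of Dbp was called, and so was the row of Sphk2, which is no clock gene but lies opposite Dbp and may hold its RNA. Dbp, the D-box binding activator whose transcript is a standard dusk marker, lies at chr7:45705088-45710203 on the plus strand. Its row stood between 9.31 and 23.9 CPM at ZT0, with a median of 16.5, and between 15.1 and 40.3 at ZT12, with a median of 29.4. The groups overlapped, and 10 of 13 ZT12 libraries lay above every ZT0 library. The difference was 0.70 ± 0.17 (SE), a 1.62-fold rise (adjusted p = 0.0405, edgeR). Sphk2, a kinase that makes sphingosine 1-phosphate, lies at chr7:45709467-45718002 on the minus strand, and its last exons overlap those of Dbp. Its row also overlaps Rpl18. It held 386 to 722 CPM at ZT0 (median 510) and 561 to 1509 at ZT12 (median 909), and again 10 of 13 ZT12 libraries were above all of ZT0. The difference was 0.87 ± 0.17, 1.82-fold (adjusted p = 0.0178, edgeR). The Rpl18 row itself moved by -0.45 ± 0.16 and was not called (adjusted p = 0.148, edgeR). Without the 2 libraries that stood apart, the differences were 0.77 for Dbp and 0.72 for Sphk2 (adjusted p 0.00742 and 0.00598, edgeR). With the overlapping share as covariate Sphk2 stayed called (adjusted p = 1.53e-05, edgeR) and Dbp did not (0.0761).

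Per1, the Period gene induced by light and through E-boxes, lies at chr11:69095217-69109960 on the plus strand and fell just outside the threshold. Its row held 2.15 to 10.9 CPM at ZT0 (median 4.29) and 5.21 to 19.8 at ZT12 (median 12.7), at a median of 10.5 reads per library. The 8 highest ZT12 libraries were above every ZT0 library and the other 5 overlapped them. The difference of 1.03 ± 0.26, 2.04-fold, had an adjusted p of 0.0504 (edgeR), next to Kcna1 at 0.0493 on the other side of the threshold. DESeq2 called Per1, and without the 2 libraries that stood apart edgeR called it too, at 0.97 (adjusted p = 0.0328, edgeR). In GFP libraries Per1 was 3.43 ± 0.94 CPM (SD, n = 4) at ZT0 and 16.3 ± 3.1 (SD, n = 6) at ZT12. In H3.3 libraries it was 7.21 ± 3.44 (SD, n = 5) and 9.94 ± 3.70 (SD, n = 7). The difference between the viruses, -1.47 ± 0.43, did not pass the test (adjusted p = 0.186, edgeR, the smallest value that any row reached in that comparison).

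Of the 25 clock genes listed, 15 had enough counts to be tested, and 13 of these had a difference above 0, against 56.4% of all rows tested. Dbp alone was called, and the median was 0.34. Clock, the activator itself, had 12.2 to 24.1 CPM at ZT0 and 17.3 to 35.3 at ZT12 (difference 0.51 ± 0.15, adjusted p = 0.0938, edgeR). Tef, a second D-box activator, had 22.1 to 42.9 and 24.9 to 81.2 CPM (0.48 ± 0.16, adjusted p = 0.133, edgeR). Nr1d2 stood at 0.55 ± 0.21 and Per3 at 0.52 ± 0.27 (adjusted p 0.187 and 0.322, edgeR). Both groups of each of these rows overlapped. The Cryptochrome gene Cry2 stood at 0.34 and the casein kinase Csnk1d, which phosphorylates Period proteins, at 0.42. Nr1d1 had a high row, 1670 to 2229 CPM at ZT0 and 1408 to 2586 at ZT12, with a difference of 0.06 ± 0.12 (adjusted p = 0.835, edgeR), and it lies opposite Thra. The Thra row, a thyroid hormone receptor, stood at 0.30 ± 0.11 (adjusted p = 0.164, edgeR). Ciart and Bhlhe40, both repressors, were at -0.16 and -0.05, and Bhlhe41, Csnk1e and Hlf at 0.07 to 0.14. Rows with too few counts for a test included Per2, Cry1, Arntl, Arntl2, Npas2, Rora, Rorb, Nfil3 and Fbxl21. Of these, Per2 had a median of 2.33 CPM at ZT0 and 5.45 at ZT12, Cry1 1.43 and 3.29, and Arntl 6.45 and 5.21, at medians of 3 to 6.5 reads per library.

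**Figure D2:**
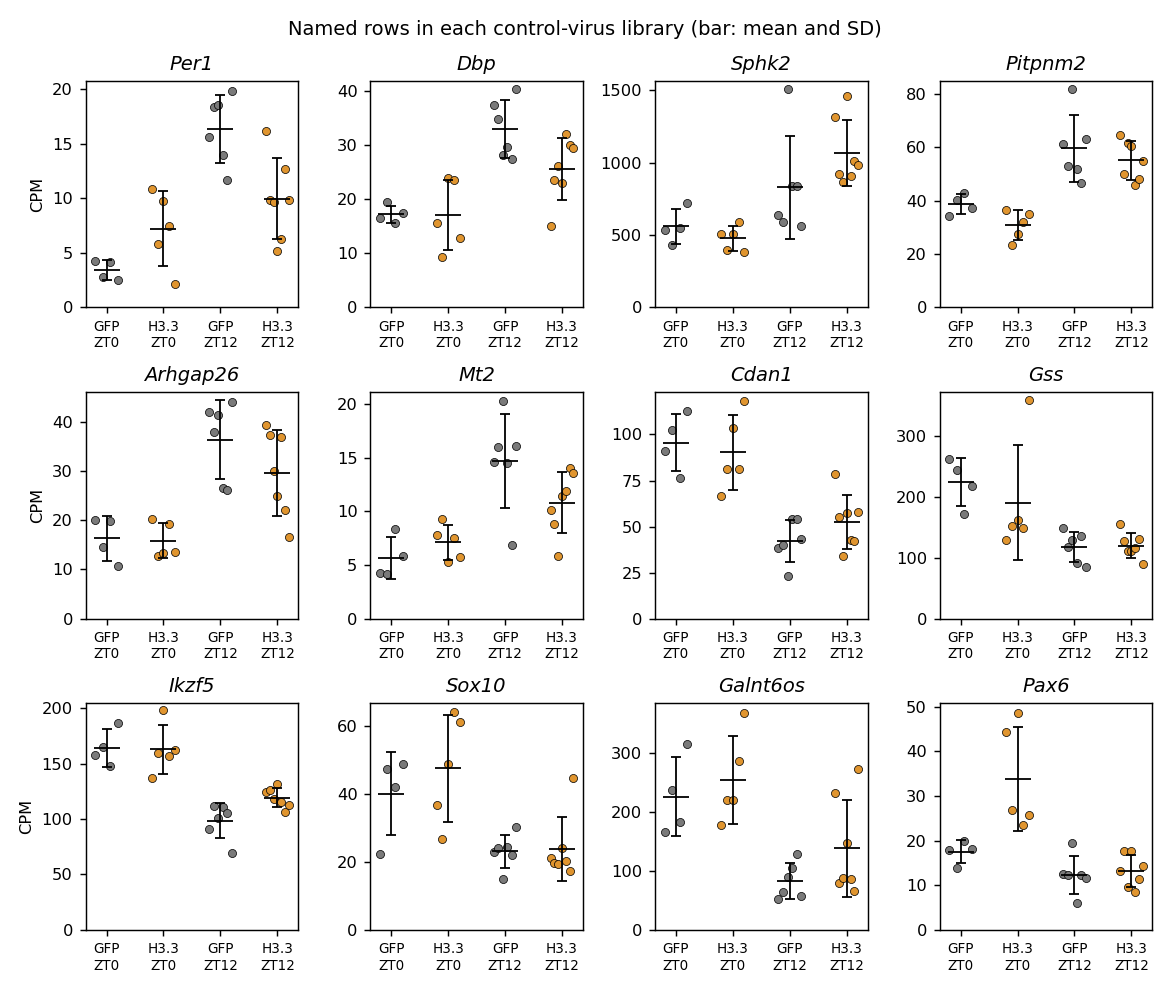
Level in CPM (vertical axis, from 0) of 12 rows in each library, by virus and ZT (horizontal axis: GFP and H3.3 at ZT0, then at ZT12). Points are libraries, grey for GFP and orange for H3.3, and the bar is the mean with its SD. Pitpnm2 at ZT12 lies above all ZT0 libraries and Ikzf5 below them, while the other rows overlap in part.

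Pitpnm2, a membrane-bound phosphatidylinositol transfer protein, separated the times in every library. It lies at chr5:124118690-124249760 on the minus strand, with no gene opposite its exons. Its row held 23.3 to 42.9 CPM at ZT0 (median 35.1) and 46.0 to 82.0 at ZT12 (median 55.0), so that all 13 ZT12 libraries lay above all 9 of ZT0. The difference was 0.70 ± 0.13, 1.62-fold (adjusted p = 0.0159, edgeR), and it was called in each of the 22 fits that left out 1 library. Rows with ZT12 entirely above ZT0 made up 0.0209% of those tested (2 rows), and rows entirely below it 0.0104% (1 row, Ikzf5).

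Further rows were called higher at ZT12. Arhgap26, a GTPase-activating protein, had 10.8 to 20.2 CPM at ZT0 (median 14.6) and 16.6 to 44.1 at ZT12 (median 37.0). All but 1 of the ZT12 libraries were above every ZT0 library, and the difference was 0.95 ± 0.18 (adjusted p = 0.0155, edgeR). Map2k1, the MEK1 kinase of the ERK pathway, rose from a median of 23.3 to 39.4 CPM (0.80 ± 0.17, adjusted p = 0.024, edgeR), with 12 of 13 ZT12 libraries above all of ZT0. Gga2, a clathrin adaptor of the trans-Golgi network, rose by 0.83 ± 0.18 and Dnajb12, a chaperone of the endoplasmic reticulum membrane, by 0.59 ± 0.14 (adjusted p 0.024 and 0.043, edgeR).

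Mt2, a metal-binding metallothionein that glucocorticoids induce, had 4.16 to 9.31 CPM at ZT0 (median 5.79) and 5.80 to 20.3 at ZT12 (median 13.6). The difference was 0.84 ± 0.20 (adjusted p = 0.0436, edgeR), at a median of 10 reads per library. Corticosterone of nocturnal rodents peaks around dusk. Of the 15 listed glucocorticoid-responsive genes 8 were tested, with a median of 0.40. A difference above 0 was found in 6 of the 8, against 56.4% of all rows. The 2 below 0 were Sult1a1 at -0.49 ± 0.26 and Cebpd at -0.34 ± 0.19. Mt2 alone was called, against 0.825% of all rows. The neighbouring Mt1 stood at 0.46 ± 0.21 (adjusted p = 0.257, edgeR) and Tsc22d3, the leucine zipper protein GILZ, at 0.63 ± 0.31 (0.302). Syt5, a vesicle calcium sensor, and Adgrb2, an adhesion G protein-coupled receptor, rose by 0.89 ± 0.22 and 0.54 ± 0.13 (both adjusted p = 0.0482, edgeR). Of the rows without a position, RP23-158M23.2 rose by 1.02 ± 0.20, RP23-456B9.21 by 1.65 ± 0.38 and AC158996.2 by 2.44 ± 0.60 (adjusted p 0.0193, 0.0351 and 0.0474, edgeR). AC158996.2 held 0 to 15.1 CPM at ZT0 and 1.51 to 78.0 at ZT12, and 6 of 13 ZT12 libraries lay within the ZT0 range.

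Rows lower at ZT12 were mostly of the overlapping kind. Of the 37 called lower rows with a position, 31 overlap another gene on the other strand and 8 are named as opposite-strand transcripts. Over both directions it was 36 of 48 (75%), against 46.9% of the 7464 tested rows with a position. For each of these rows the values may be those of the opposite gene. The smallest p belonged to Cdan1, the codanin gene mutated in congenital dyserythropoietic anaemia, at chr2:120716154-120850128 on the minus strand opposite Stard9. Its row held 66.8 to 118 CPM at ZT0 (median 90.9) and 22.9 to 78.7 at ZT12 (median 43.1). All but 1 of the ZT12 libraries lay below every ZT0 library, and the row fell by 0.96 ± 0.16, 1.95-fold (adjusted p = 0.00849, edgeR). The Stard9 row, a kinesin-like gene, stood at -0.31 ± 0.16 and was not called (adjusted p = 0.319, edgeR).

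Ikzf5, an Ikaros-family zinc finger factor at chr7:131388652-131410521 on the minus strand opposite Pstk, a kinase of selenocysteine synthesis, had 137 to 198 CPM at ZT0 (median 159) and 69.6 to 131 at ZT12 (median 112). All 13 ZT12 libraries were below all of ZT0, and the row fell by 0.59 ± 0.11 (adjusted p = 0.0134, edgeR), while the Pstk row stood at -0.02 ± 0.16. Adamts4, a protease that cleaves proteoglycans, held 23.0 to 58.4 CPM at ZT0 (median 36.4) and 10.6 to 33.3 at ZT12 (median 17.2). In 9 of 13 ZT12 libraries it lay below all of ZT0, and it fell by 0.98 ± 0.19 (adjusted p = 0.0171, edgeR).

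Gss, glutathione synthetase, lies opposite Acss2, an acetyl-CoA synthetase. Its row held 130 to 359 CPM at ZT0 and 85.6 to 155 at ZT12 and fell by 0.80 ± 0.16 (adjusted p = 0.0186, edgeR), while the Acss2 row stood at -0.39 ± 0.18 (0.286). Xrcc6, the Ku70 subunit of DNA end joining, lies opposite Desi1, a desumoylating enzyme, and fell by 0.79 ± 0.16, and Amz1, a metallopeptidase opposite the G protein subunit gene Gna12, fell by 0.67 ± 0.14 (both adjusted p = 0.0226, edgeR). The rows of their partners, Desi1 and Gna12, stood at -0.17 and 0.12. In these pairs the called row and the row of its partner were not both called. Fbxw15, an F-box protein, fell by 0.81 ± 0.17 and Scd3, a stearoyl-CoA desaturase, by 1.14 ± 0.25 (both adjusted p = 0.024, edgeR). Scd3 had 11.6 to 21.5 CPM at ZT0 and 2.64 to 20.8 at ZT12, and 11 of 13 ZT12 libraries were below all of ZT0. Among rows without a position RP23-280F6.4 fell by 1.34 ± 0.22, RP23-358M4.4 by 0.70 ± 0.12 and RP23-390I1.2 by 1.23 ± 0.24 (adjusted p 0.00849, 0.0116 and 0.0186, edgeR).

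Sox10, a transcription factor of oligodendrocytes, the cells that make myelin, lies at chr15:79154908-79165240 on the minus strand with no gene opposite its exons. Its row held 22.2 to 64.0 CPM at ZT0 (median 47.1) and 15.0 to 44.5 at ZT12 (median 22), and 7 of 13 ZT12 libraries lay below all of ZT0. It fell by 0.87 ± 0.18, 1.83-fold (adjusted p = 0.024, edgeR). Galnt6os, opposite the glycosyltransferase gene Galnt6, had 166 to 368 CPM at ZT0 and 52.0 to 272 at ZT12 and fell by 1.15 ± 0.23 (adjusted p = 0.0193, edgeR). Further rows were named after their values were seen, so nothing follows from them about a group. Bcas1os1 and Bcas1os2 lie opposite Bcas1, a gene of newly myelinating oligodendrocytes, and fell by 1.11 ± 0.25 and 1.14 ± 0.26. Galnt5 lies opposite Ermn, a cytoskeletal gene of myelin, and fell by 1.09 ± 0.25 (adjusted p 0.0321, 0.0289 and 0.033, edgeR). The Bcas1 row itself was at -0.80 ± 0.26 (adjusted p = 0.116, edgeR) and that of Ermn at -0.51 ± 0.27 (0.343).

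Of the 11 listed oligodendrocyte markers 10 were tested and none was called, and all 10 had a difference below 0, with a median of -0.55. An unadjusted p under 0.05 with a lower level at ZT12 was found in 7 of the 10, against 7.99% of all rows. DESeq2 called Mal, as did edgeR with the overlapping share as covariate. The list's median was -0.37 in GFP, -0.81 in H3.3 and 0.53 in Q5A libraries. Mbp, myelin basic protein, had a mean of 1089 ± 256 CPM (SD, n = 9) at ZT0 and 681 ± 462 (SD, n = 13) at ZT12 (difference -0.68 ± 0.26, adjusted p = 0.18, edgeR). Mal and Cldn11, a myelin proteolipid and the claudin of myelin junctions, stood at -0.61 ± 0.19 and -0.66 ± 0.23 (adjusted p 0.0998 and 0.143, edgeR). The summed level of the list was 1709 to 3240 CPM at ZT0, with a median of 2764, and 1144 to 4154 at ZT12, with a median of 1630. The ZT12 maximum came from the cohort 3 library, and the next highest ZT12 library stood at 2531 CPM. In bulk tissue, fewer oligodendrocytes in a sample and less RNA per oligodendrocyte cannot be told apart. The share of myelin in each dissection was not tested as a source of these values.

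**Figure D3:**
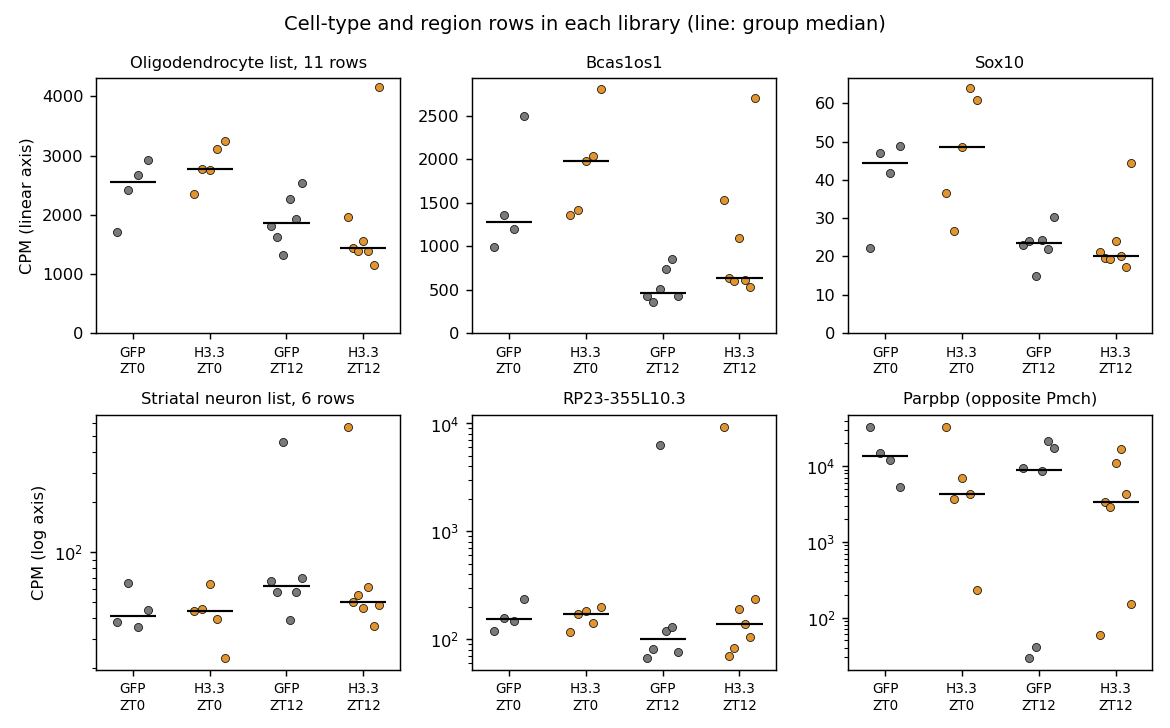
Level in CPM of 6 measures in each library, by virus and ZT (horizontal axis), on a linear axis from 0 in the upper row and a log axis in the lower row. Grey points are GFP and orange points H3.3 libraries, and lines are group medians. In the upper row the 11 oligodendrocyte markers, Bcas1os1 and Sox10 have lower medians at ZT12, with 1 high H3.3 library at 4154 CPM for the markers. In the lower row, 2 ZT12 libraries stand far above the others in the 6 striatal markers and in RP23-355L10.3, and Parpbp varies within every group.

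Other cell types gave no called marker in the fit of all 22 libraries. Of the tested markers of astrocytes (10), neurons (10), microglia (5), endothelium (1), ependyma (1), striatal neurons (3), pituitary (2) and red blood cells (1), none passed the threshold (edgeR). The astrocyte, neuron and microglia medians were 0.04, 0.17 and -0.09. Unadjusted p values under 0.05 were found in 2 astrocyte, 1 neuron, 0 microglia, 2 striatal, 1 pituitary and 0 endothelial, ependymal and red blood cell markers, against 16.8% of all rows, and DESeq2 called none of these. Gjb6, a gap junction protein of astrocytes, stood at 0.67 ± 0.21 (adjusted p = 0.101, edgeR). Without the 2 libraries that stood apart it was called at 0.78 (adjusted p = 0.0222, edgeR), where 2.47% of all rows were called higher. The striatal median was 1.38 over 3 rows and 0.07 without the 2 libraries that stood apart. The pituitary list summed to 34.9 to 92.2 CPM at ZT0 and 28.3 to 75.0 at ZT12, mostly from Tshb, the thyrotropin beta subunit, at -0.58 ± 0.18 (adjusted p = 0.0965, edgeR). The 15 mitochondrially encoded rows were listed at 0 in all 22 libraries, and none of the 5 sex-linked rows had enough counts.

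Pax6, a developmental transcription factor kept in some hypothalamic cells, was lower at ZT12 in both viruses. Its row held 13.9 to 48.7 CPM at ZT0 (median 23.5) and 6.05 to 19.4 at ZT12 (median 12.4), and fell by 0.94 ± 0.20 (adjusted p = 0.024, edgeR). The highest ZT0 values came from H3.3 libraries, 33.8 ± 11.7 CPM (SD, n = 5), against 17.5 ± 2.6 (SD, n = 4) in GFP. Of 92 listed potassium channel genes 42 were tested, with a median of 0.03. At an unadjusted p under 0.05, 4 were higher at ZT12 and 5 lower, against 8.79% and 7.99% of all rows. The adjusted threshold called 1 of them, against 0.825% of all rows. This was Kcna1, the Kv1.1 subunit that limits firing, which had 11.4 to 34.5 CPM at ZT0 and 4.67 to 22.6 at ZT12 (-0.89 ± 0.22, adjusted p = 0.0493, edgeR). The background potassium channels Kcnk4 and Kcnk13 stood at -0.63 ± 0.16 and -0.65 ± 0.17 (adjusted p 0.0585 and 0.0608, edgeR). Without the 2 libraries that stood apart both were called (adjusted p 0.0351 and 0.0425, edgeR). That fit called 3 of 41 tested channels, all lower, against 3.14% of all rows called lower. Of 47 GABA and glutamate receptor genes 31 were tested, none was called and 25 had a difference above 0 (median 0.18). Unadjusted p values under 0.05 numbered 8 in that list, all higher at ZT12, against 8.79% of all rows, with the AMPA receptor subunit Gria1 at 0.69 ± 0.22 (adjusted p = 0.123, edgeR). Without the 2 libraries 3 rows of the list were called higher, against 2.47% of all rows. The list's median was 0.49 in GFP and 0.07 in H3.3 libraries. With the overlapping share as covariate it was 0.06 and none was called.

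Among 20 hypothalamic transmitter and peptide genes 13 were tested and none was called by edgeR, while 6 had an unadjusted p under 0.05, against 16.8% of all rows, and DESeq2 called 3, against 2.29%. Oxt, oxytocin, was 0 to 9.73 CPM at ZT0 and 0 to 111 at ZT12, with 6 of 13 ZT12 libraries above all of ZT0 (difference 3.06 ± 0.80, adjusted p = 0.0606, edgeR). Penk and Tac1, which encode enkephalin and substance P, stood at 1.48 ± 0.42 and 1.17 ± 0.37 (adjusted p 0.0761 and 0.108, edgeR). Without the 2 libraries that stood apart Oxt was called at 3.29 (adjusted p = 0.00953, edgeR) and Penk fell to 0.73 (0.0658). Where within the hypothalamus each dissection lay was not tested. Of the histamine pathway, 13 genes, 3 were tested and none was called (lowest unadjusted p 0.154, Hrh3). Slc18a2, the vesicular monoamine transporter, stood at -0.10 ± 0.22.

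The remaining lists held no called row, with medians read against 0.05 over all rows. They were heat shock and cold-inducible genes (13 tested, median 0.12), endoplasmic reticulum chaperones (13, 0.22), sterol synthesis (11, 0.21), H3.3 and H3K4 methylation genes (12, 0.18), immediate early genes (9, -0.26), nuclear retained RNAs (7, 0.20) and ribosomal proteins (39, 0.17). At an unadjusted p under 0.05 these lists held 2, 0, 1, 1, 1, 2 and 6 rows, shares near or below the 16.8% of all rows except for the 2 of 7 nuclear retained RNAs, and of these rows DESeq2 called 1, a ribosomal protein row. Cirbp, the cold-inducible RNA-binding protein, stood at 0.79 ± 0.25 (adjusted p = 0.121, edgeR) and was called without the 2 libraries at 0.89 (0.0332). H3f3b, which encodes H3.3 in the genome, stood at 0.39 ± 0.21 (adjusted p = 0.344, edgeR).

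Both control viruses gave the same direction for all 79 called rows when fitted apart, which follows in part from their choice in the joint fit. In GFP libraries alone 105 of 10635 rows were called (0.987%) and 26 of them were among the 79. In H3.3 libraries alone 1 of 8233 rows was called (0.0121%), and it was Sphk2. The median difference of the rows called lower was -1.06 in GFP and -0.65 in H3.3, and 57 of these 65 rows were larger in GFP. The difference between the viruses itself called 0 of 9578 rows in edgeR, with 1653 at an unadjusted p under 0.05, and 83 rows in DESeq2 (0.867%), none of them among the 79. All 83 were lower at ZT12 in GFP alone, with medians of -0.56 in GFP and 0.20 in H3.3. All 83 had been called for a more positive difference in H3.3 in these same libraries, so these values follow in part from that choice. On simulated data this comparison recovered 16% of rows changed by 1 on the log2 scale and 59% of those changed by 2. Sphk2 rose from 479 ± 86 CPM (SD, n = 5) to 1068 ± 230 (SD, n = 7) in H3.3 and from 560 ± 119 (SD, n = 4) to 829.5 ± 354 (SD, n = 6) in GFP. The 4 GFP libraries of low overlapping share were among those 6.

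Q5A libraries share no sample with the control libraries, with 6 at ZT0 and 7 at ZT12. In them 0 of 9243 rows were called between the times (604 at an unadjusted p under 0.05, edgeR). Of the 14 rows called higher in controls 13 were tested there, and 11 had the same sign, where 56.4% of all rows lay above 0. An unadjusted p under 0.05 (edgeR) was found in 3 of the 13, against 604 of all 9243 rows. These 3 were Dbp, Sphk2 and Mt2, and the overlapping Dbp and Sphk2 rows may hold the same RNA. Dbp was 19.8 ± 2.8 CPM (SD, n = 6) and 32.9 ± 5.1 (SD, n = 7) in Q5A, a difference of 0.69 ± 0.19 beside 0.70 in controls. Sphk2 stood at 0.62 ± 0.20 and Mt2 at 0.77 ± 0.26. Pitpnm2 was at 0.17 ± 0.18 and Arhgap26 at 0.05 ± 0.24. Of the 65 rows called lower, 39 had the same sign in Q5A, where 56.4% of all rows lay above 0, and their median was -0.06. Cdan1 was 57.3 ± 21.1 CPM (SD, n = 6) at ZT0 and 57.1 ± 9.7 (SD, n = 7) at ZT12 in Q5A.

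The difference between Q5A and controls in the step from ZT0 to ZT12 called 0 of 9552 rows in edgeR (428 at an unadjusted p under 0.05) and 0 in DESeq2. For Cdan1 it was 0.97 ± 0.27 (unadjusted p = 0.000836, adjusted 0.999, edgeR), for Sox10 1.03 ± 0.31 (0.00207, adjusted 0.999) and for Pitpnm2 -0.52 ± 0.20 (0.0137, adjusted 0.999). Of the 79 rows, 49 had an unadjusted p under 0.05, but they were chosen for their difference in the control libraries that this comparison uses. On simulated data it recovered 21% of rows changed by 1 on the log2 scale and 86% of those changed by 2. Within cohort 1 it called 163 rows, 140 of them more positive in Q5A.

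**Figure D4:**
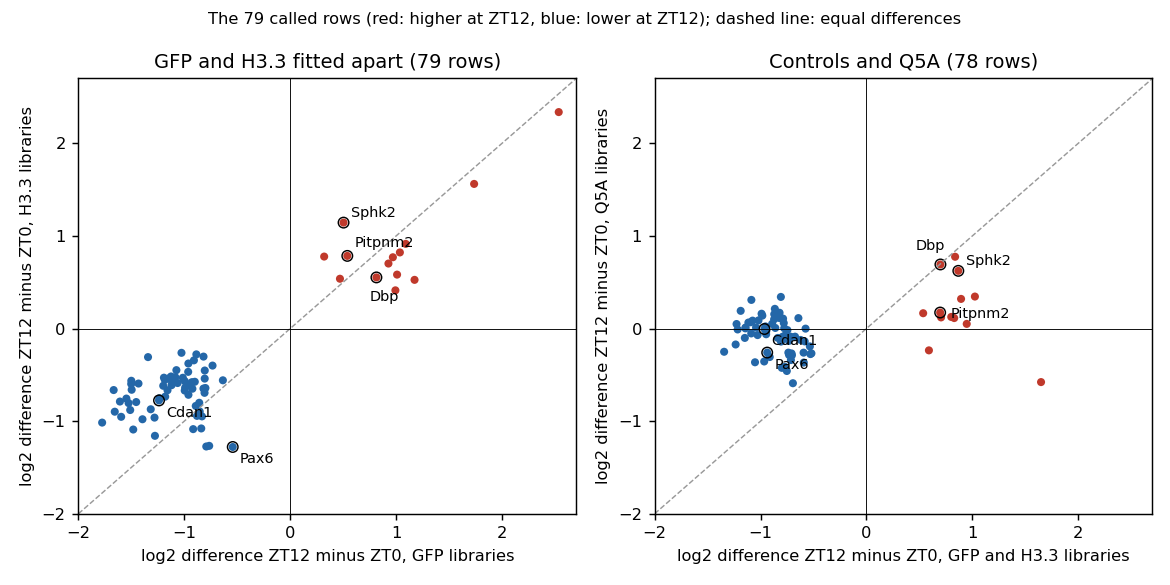
Log2 difference of ZT12 minus ZT0 of the called rows, fitted in GFP (horizontal) against H3.3 (vertical) on the left for 79 rows, and in controls against Q5A on the right for the 78 rows tested in both. Red rows were called higher and blue rows lower at ZT12 in the joint control fit, and the dashed line marks equal differences. On the left all rows lie in the lower left or upper right quadrant, and on the right most blue rows lie near 0 on the Q5A axis, with a median of -0.06.

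The other 12 h steps used control libraries that the comparison of ZT12 with ZT0 did not. ZT16 against ZT4 (14 and 11 libraries) called 0 of 9611 rows in edgeR, with 931 at an unadjusted p under 0.05, and 16 in DESeq2. ZT20 against ZT8 (11 and 13 libraries) called 1803 of 8837 rows (20.4%), 1025 higher and 778 lower at ZT20. Over the 6 times the Sphk2 row had means of 515 ± 104, 544 ± 156, 849 ± 188, 958 ± 307, 626 ± 217 and 505 ± 235 CPM (SD, n = 9, 11, 13, 13, 14 and 11) from ZT0 to ZT20, so the ZT8 and ZT12 means were the highest and lay within their spread of each other. It was lower at ZT20 than at ZT8 by 0.74 ± 0.16 (adjusted p = 0.004, edgeR). Dbp followed with means of 17.1, 19.9, 23.9, 29.0, 22.3 and 19.7 CPM, and its step from ZT8 to ZT20 was -0.26 ± 0.18 (adjusted p = 0.283, edgeR).

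Per1 had means of 5.53, 6.01, 6.85, 12.9, 10.5 and 9.11 CPM over the same times, with SDs of 2.66 to 4.67. The ZT12 mean was the highest and the ZT0 mean the lowest, and the mean ± SD of neighbouring times overlapped. Pitpnm2 also had its lowest mean at ZT0, 34.3 ± 6.1 CPM (SD, n = 9), and its highest at ZT12, 57.3 ± 9.9 (SD, n = 13), with 41.9 to 49.5 at the other 4 times. Arhgap26 was 16 CPM at ZT0, 32.7 at ZT12 and 19.9 to 22.9 at the other times. Thra and Nr1d1, which lie opposite each other, were both highest at ZT8 and lowest at ZT20, and fell from ZT8 to ZT20 by 0.49 ± 0.11 and 0.56 ± 0.12 (adjusted p 0.00538 and 0.00402, edgeR). Among the rows lower at ZT12, Cdan1 had its highest mean at ZT0, 92.6 ± 17.5 CPM (SD, n = 9), and 47.7 to 67.6 at the other 5 times. Bcas1os1 was at 1738 ± 625 at ZT0 and 847 to 1171 elsewhere. In both rows the ZT12 mean lay within the spread of ZT8 and ZT16, and these levels were compared by no test.

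**Figure D5:**
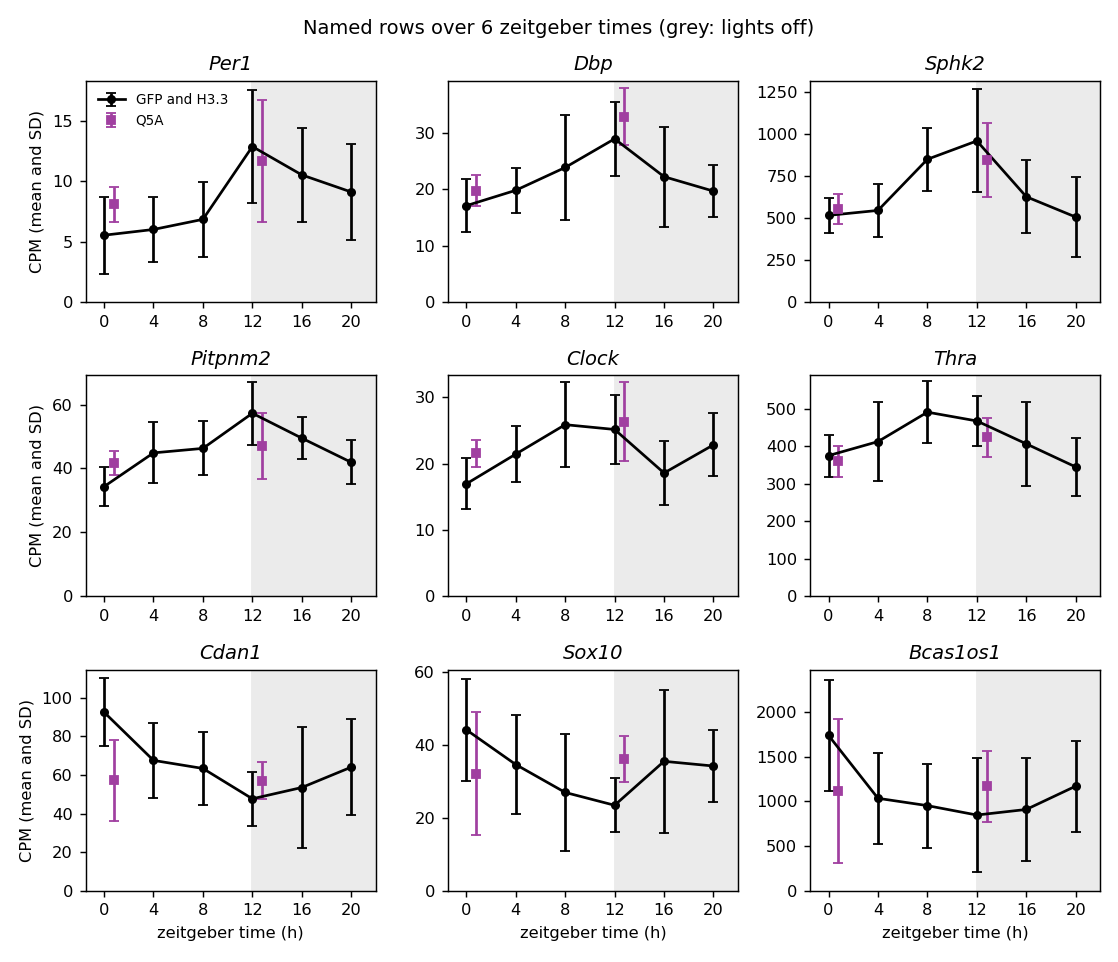
Mean level in CPM with its SD (vertical axis, from 0) of 9 rows at 6 zeitgeber times in hours (horizontal axis) in GFP and H3.3 libraries pooled (black, 9 to 14 libraries a time) and at ZT0 and ZT12 in Q5A libraries (purple, 6 and 7 libraries, drawn to the right of their time). Grey marks lights off. Per1, Dbp, Sphk2 and Pitpnm2 are highest at ZT12, and Cdan1 and Bcas1os1 are highest at ZT0.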

How the data were processed

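Libraries were made from TMN tissue of single animals. The deposited counts were whole-number reads per gene name and were not normalised. The authors placed reads on GRCm38 with STAR 2.7.11b and counted exons by gene name with HTSeq 2.0.5 in its stranded mode. The entries for unassigned reads were left out. Of reads placed at 1 site, 3.49% to 5.63% fell in a gene row, and 64.9% of their counts had a name in the annotation. Members and gene lists were chosen with earlier results of these data known. Low rows were dropped (filterByExpr, minimum count 10), and 9578 of 54087 remained. Tests were edgeR 4.0.16 quasi-likelihood fits in R 4.3.3 with TMM scaling and virus as covariate, with Benjamini-Hochberg adjusted p under 0.05 as the call. DESeq2 1.42.0 was an alternative. An SE is the size of the difference divided by the root of F. Library measures were compared by exact permutation tests (scipy 1.17.1). CPM were scaled over all 111 libraries. Named genes were the markers, the clock list, called rows of smallest p (up to 12 with and 3 without a position in each direction), the top 3 of each list and the genes opposite them, and a few of these are not reported here. On simulated data the main test recovered 76% of rows changed by 1 and 99% of those changed by 2 on the log2 scale. No source says that the labelled replicates share a litter or day, and p-values measure the spread between these animals. Promoter sequences came from RefSeq (GRCm38.p6) and positions from the GRCm38 annotation. A further 18 files belong to no sample used here.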

Additional observations from a re-analysis of the deposited data

Results flagged for a closer look

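A library was marked where its gap to the nearest other library of its group exceeded the 95% limit of Dixon's test for the group's size. This held in 14 of 84 groups and measures examined (16.7%), where chance gives about 1 in 20.

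The total count of GFP ZT0 replicate 3 of cohort 1 was 926778, below the 1453189 to 1498313 of the others. The same library had the outlying summed astrocyte markers of its group, 543 CPM. The Sphk2 row reached 1509 CPM in GFP ZT12 replicate 3 of cohort 1, 1 of the pair with high striatal markers (458.3 CPM) and RP23-355L10.3 (6335 CPM). The other of the pair, H3.3 ZT12 replicate 1 of cohort 1, held 570.3 and 9335 CPM of these. The H3.3 ZT12 library of cohort 3 stood apart in Sox10 (44.48 CPM) and in the summed oligodendrocyte (4154 CPM), astrocyte (555.6 CPM) and neuron (22432 CPM) markers. Parpbp was at 32622 CPM in H3.3 ZT0 replicate 1 of cohort 1. The summed neuron markers were at 18981 CPM in GFP ZT0 replicate 4 of cohort 1 and at 23816 CPM in H3.3 ZT0 replicate 1 of cohort 2. Whether the dissection or the library preparation moved with these values was not tested.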

How the results depend on the processing

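The 79 calls between ZT12 and ZT0 stayed within 1.5 times under another size factor, a minimum count of 5, cohort 1 alone, GFP alone, a robust fit and the share of reads in gene rows as covariate. They became 219 with DESeq2 (71 higher, 148 lower), 458 with no filter, 2 at an adjusted p under 0.01, 20 with no covariate, 313 with cohort as a covariate, 1 in H3.3 alone, 119 with all 71 control libraries in 1 fit and 529 without the 2 libraries of highest RP23-355L10.3. With alternatives chosen after the data were seen they became 49 with the overlapping share as covariate and 9 without the 4 libraries of lowest such share. Left out singly, libraries gave 8 to 326 calls. Counts over 1.5 times away came without GFP ZT0 replicates 2, 3 and 4 of cohort 1 (11, 49 and 8), H3.3 ZT0 replicates 1 and 3 of cohort 1 and the cohort 2 library (134, 45 and 10), GFP ZT12 replicates 1 and 2 of cohort 1 (20 and 15), H3.3 ZT12 replicates 1, 2 and 3 of cohort 1 (182, 36 and 16), both libraries of cohort 2 (35 and 39) and that of cohort 3 (326). Replicate numbers did not pair the libraries (correlations of -0.349 to 0.0999), and a replicate block on 18 libraries gave 136 calls against 205 without it. The difference between H3.3 and GFP gave 83 calls with DESeq2 against 0, that between Q5A and controls 163 in cohort 1 alone against 0, and ZT16 against ZT4 16 with DESeq2 against 0. No named row changed sign in a fit where it was called there or in the main analysis. Of 5237 fits of named rows under an alternative, 151 had the other sign, in 34 rows, and in none of these was the row called in either fit. Without the 2 libraries RP23-355L10.3 itself went from 2.95 to -0.51 and the striatal marker Ppp1r1b from 2.11 to -0.24. The cause of these changes was not tested. Rows such as Per1 rest on about 10 reads per library, which limits what can be called there.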
